A study of Mus musculus with 12 samples.

Results

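Blastocysts kept under p38-MAPK inhibition (p38-MAPKi) were compared between E3.5 + 7 h and E3.5 + 10 h, here called 7 h and 10 h, while the inhibitor stayed in the medium. The comparison rests on 4 of the 12 libraries of the series, 2 for each time point, and on the 11024 of 34245 genes with at least 1 RPKM (reads per kilobase of exon, scaled to the depth of the library) in at least 2 of these 4 libraries. Each library was made from a pool of 30 whole blastocysts. The embryos came from matings of F1 (C57Bl6 x CBA/W) hybrids, were cultured from the 2-cell stage in KSOM with amino acids, and were moved at E3.5 into the same medium with either DMSO alone (control) or 20 µM SB220025 in DMSO. Every group of the series shares this background and solvent, and the groups differ in the inhibitor and in the time of collection, at 4, 7 or 10 h. RNA with a poly(A) tail was sequenced, no RNA was spiked in, and each value is therefore a share of its library rather than an amount per embryo.

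The blastocyst has an outer trophectoderm (TE), which pumps fluid into the cavity, and an inner cell mass, in which epiblast (EPI) and primitive endoderm (PrE) cells are set apart. p38-MAPK is a kinase that responds to stress and growth signals, and SB220025 is a small molecule that competes with ATP for its active site. Ribosomal protein (RP) mRNAs carry a stretch of C and T at their first bases, through which growth signalling controls their translation and stability. In the Hippo pathway, angiomotins and junction proteins control whether YAP enters the nucleus, where it joins TEAD4 to switch on TE genes.

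The calls in the RP list were falls and those in the Hippo list rises, and sequences near the start of some members of each are shown because the letters were not used by the comparison. Among 61 RP genes matched by symbol in the RefSeq promoter sequences, out of 82, a run of 8 or more C or T within 20 bases of the start was found in 31 (50.8%), against 18.4% of 27025 genes. The length of the run and of the window were set after several had been tried. The letters GGAATG, or CATTCC for the other strand, which are bound by TEAD factors, were found between 250 bases before and 50 bases after the start in 12 of 20 matched Hippo genes (60%), out of 26 in the list, against 16.6% of all genes. Both are matches of letters and not measured binding, and the TTCC of CATTCC can also be part of a run of C and T. The Hippo list holds YAP targets, and YAP acts through TEAD factors, so a share above that of all genes may be built into the list. The run of C and T is likewise a known trait of RP genes. Neither share is therefore evidence on the changes of these genes. The printed examples were picked for holding the letters and, among such members, for the largest falls (RP) or called rises (Hippo). The run of Rpl39 goes on by a T left in lower case, which lies outside the searched window. In Rpl39 and Rpl13 the run lies wholly before the annotated start, and the letters of Mob1a lie 209 bases before it. They are printed 5′ to 3′ on the strand of the gene in RefSeq GRCm38.p6, 30 bases each, with the motif in capitals.

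Rpl38 (chr11:114668572-114668601, + strand): gcctcgTTCTTTCCCCgttctcttcggttc
Rpl39 (chrX:37085219-37085248, - strand): atccatCCCCCCCTaagctccgcctctagc
Rpl13 (chr8:123102328-123102357, + strand): acgtcaCTTCCCTTTCgcctgattttgatt
Rplp2 (chr7:141447640-141447669, + strand): tcagcgTCTTCCTTTCgccgccggacgccg
Rpl22l1 (chr3:28805502-28805531, + strand): aagcccgTTCTCTTCCCacggctgcagctc
Amotl2 (chr9:102717727-102717756, + strand): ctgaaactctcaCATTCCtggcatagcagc
Vgll4 (chr6:114969268-114969297, - strand): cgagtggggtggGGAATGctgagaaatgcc
Wwc2 (chr8:47990730-47990759, - strand): gagcgagctgtgCATTCCtccgccctaccg
Ajuba (chr14:54577830-54577859, - strand): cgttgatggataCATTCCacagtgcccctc
Mob1a (chr6:83325818-83325847, + strand): tggccagaatagCATTCCtttaggagaaga

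The 4 libraries held 11242313 and 17435561 reads at 7 h and 22019720 and 24457312 reads at 10 h. Replicate 1 at 7 h stood apart in detection: a read was found for 14023 of its genes, against 16365 to 17667 in the other 11 libraries. Its log2 values correlated with those of its replicate at 0.894 across genes, against 0.965 to 0.982 for the other pairs. The median size of the log2 difference within this pair was 0.31, against 0.29 in the p38-MAPKi pair at 4 h and 0.12 in that at 10 h. Counts without replicate 1 at 7 h stand beside many of the lists below. Such a fit takes its spread from the 10 h pair alone, so more calls in it do not show that a change is firmer. The markers of the 3 blastocyst lineages were present, with 18 of 22 TE, 17 of 22 EPI and 17 of 22 PrE genes at 1 RPKM or more in all 4 libraries. Of 8 markers of cumulus and granulosa cells and 5 of oviduct epithelium, 0 reached 1 RPKM in all 4 libraries, and their sums stayed between 0.07 and 0.90 RPKM and between 0.49 and 1.25 RPKM over the 12 libraries. The 8 genes of oocyte remnants summed to 8.35 and 4.10 RPKM at 7 h and 3.13 and 2.82 RPKM at 10 h. One of them, Zp3, a protein of the zona pellucida, passed the filter, through its 7 h libraries alone, with 3.43 and 2.08 RPKM and then 0.961 and 0.464 RPKM. Whole embryos were sequenced, so fewer cells of a type and less RNA per cell cannot be told apart in any result that follows.

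Between 7 h and 10 h under p38-MAPKi, 2424 of the 11024 genes (22.0%) passed an adjusted p of 0.05 in limma, of which 1319 (12%) rose and 1105 (10.0%) fell. In all 2424, both libraries of one time point lay outside the range of the other, a separation that was found in 44.1% of all tested genes with 10 h above and in 26.1% with 10 h below. A gene under 1 RPKM in both libraries of one time had to be higher at the other to be tested at all, which holds for 248 genes that passed through 10 h (20 of them called) and 148 that passed through 7 h (26 called). Such genes are named below by their values only, and they occur in 6 of the lists. At an unadjusted p under 0.05 there were 4471 genes, the smallest adjusted p was 0.0153, and 1273 genes differed by at least 1 on the log2 scale. Over the same hours in control blastocysts, with no library in common, 6 of 10873 genes (0.0552%) passed the test, all of them higher, 412 had an unadjusted p under 0.05, and 108 changed by 1 or more. The median size of the log2 change was 0.43 under p38-MAPKi and 0.11 in the control. A direct test of the difference of these changes, the interaction over the 8 libraries, passed in 1 of 11400 genes (0.00877%) at an adjusted p of 0.05, in 1176 at an adjusted p of 0.1 and in 2995 at an unadjusted p of 0.05. Most changes under p38-MAPKi were therefore not shown, gene by gene, to differ from those of the control.

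**Figure D1:**
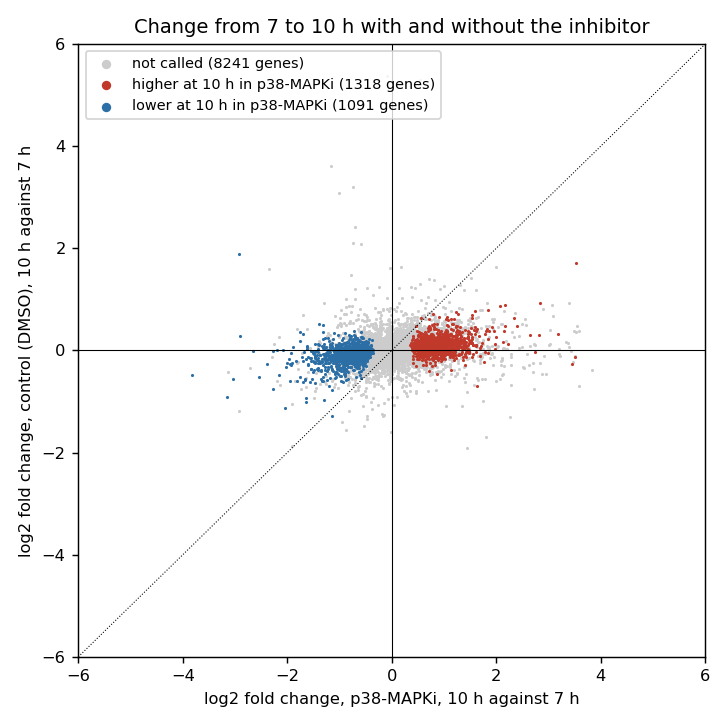
Log2 fold change from 7 h to 10 h under p38-MAPKi (horizontal axis) against the same in control blastocysts (vertical axis), 1 point per gene for the 10650 genes tested in both. Red and blue points are genes called under p38-MAPKi, the dotted line marks equal change, and the cloud is wide along the horizontal axis and narrow along the vertical one (Pearson r 0.244 and Spearman rho 0.313, taken over genes rather than samples).

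The number of calls depended on which library was left out, and a fit without a library took its spread from the intact pair alone. Without p38-MAPKi replicate 1 at 7 h there were 4622 calls (42.8%; 2669 higher, 24.7%, and 1953 lower, 18.1%), and without replicate 2 at that time 6369, whereas leaving out replicate 1 or 2 at 10 h, so that the spread came from the pair at 7 h, left 88 and 283. With each library centred on its median, 2478 genes (22.5%) were called, 644 higher (5.84%) and 1834 lower (16.6%), so the balance of directions depended on this shift, which leaves the order of the genes as it was. The median change of all genes was 0.16 as deposited and -0.06 after centring, and the values of the gene lists below should be read against the 0.16.

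The genes that rose and those that fell differed in the length of their transcripts. The median summed exon length was 6138 bases for genes that rose, 1860 for genes that fell and 3901 for all tested. The median log2 change was -0.56 for genes under 1000 bases, -0.30 from 1000 to 2000, 0.03 from 2000 to 4000, 0.31 from 4000 to 8000 and 0.60 for 8000 or more. In control blastocysts the same medians stayed between -0.02 and 0.05. The mean log2 exon length over the reads was 11.81 and 11.87 in the libraries at 7 h, lower than the 11.88 to 12.09 of the other 10 libraries, and 12.08 and 12.04 at 10 h. Whether length itself has a part in the changes was not tested, and the lists below are also counted with the length trend of the libraries removed, a setting in which 841 genes (7.63%) were called, 471 higher (4.27%) and 370 lower (3.36%). A count of list members in any such setting is to be read against the share of all genes called in that setting.

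**Figure D2:**
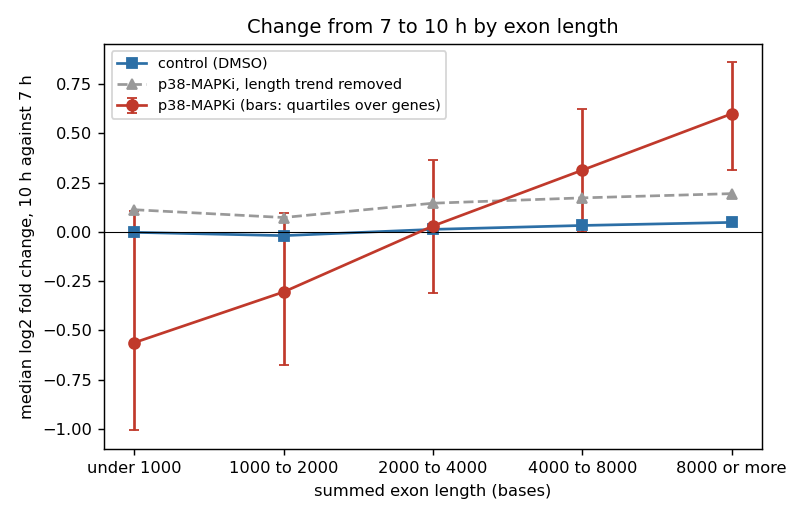
Median log2 fold change from 7 h to 10 h (vertical axis) in 5 classes of summed exon length in bases (horizontal axis). Red points are p38-MAPKi with bars from the lower to the upper quartile over genes, blue squares are the control and grey triangles are p38-MAPKi after removal of the length trend; the red medians climb from -0.56 to 0.60, while the blue ones stay near 0.

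Seen beside the control at each time, the genes that rose were, by their median, lower in p38-MAPKi than in control at 7 h. Their median difference from control was -0.20 at 4 h, -0.71 at 7 h and 0.02 at 10 h, and that of the genes that fell was 0.26, 0.59 and -0.12. The comparisons at 7 h and 10 h share the p38-MAPKi libraries with the change over time, so the values are placed side by side and are not independent of it. The values at 4 h average p38-MAPKi libraries that were unlike each other. Replicates 1 and 2 at 4 h had a mean log2 exon length over the reads of 12.01 and 11.88. Their RP genes of the large subunit summed to 13047 and 17971 RPKM.

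Of the lists with 10 or more genes tested, those of the RP genes held the largest shares of called members. Of the 33 proteins of the small subunit of the cytosolic ribosome 32 fell and 0 rose, with changes from -1.32 to -0.37 and a median of -0.83, and of the 49 of the large subunit 41 fell and 0 rose, from -1.71 to -0.19 with a median of -0.78. These shares stand against the 10.0% of all tested genes that fell. The summed level of the large subunit was 21895 and 19720 RPKM at 7 h and 10705 and 11815 RPKM at 10 h, and that of the small subunit was 13533 and 12279 RPKM, then 6704 and 7391 RPKM. In control blastocysts at 10 h the sums were 12283 and 11934 RPKM and 7677 and 7411 RPKM, so both p38-MAPKi libraries lay below both control libraries by then. With the length trend removed the medians were -0.47 (14 fell) and -0.56 (25 fell), and without replicate 1 at 7 h they were -0.77 and -0.80. The control medians over these hours were 0.00 and -0.05.

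Rpl38, a small protein of the large subunit whose start is printed above, had 679 and 479 RPKM at 7 h and 162 and 187 RPKM at 10 h. Its pairs did not overlap, and it fell by 1.71 ± 0.18 (SE, n = 2 per time) on the log2 scale (limma adjusted p = 0.0153). Rpl39 went from 349 and 213 RPKM to 99.4 and 97.1 RPKM and fell by 1.47, and Rpl13 went from 283 and 201 RPKM to 83.3 and 93.3 RPKM and fell by 1.44. All 3 ended near the control at 10 h, which was 182 and 183 RPKM for Rpl38, 104 and 95.0 RPKM for Rpl39 and 109 and 97.7 RPKM for Rpl13. Rplp2, of the ribosomal stalk, and Rpl22l1, a paralog of Rpl22, fell by 1.21 and 1.08. In the small subunit, Rps21 fell by 1.32 and Rps13 by 1.19, and Rps15, the member with the highest level, fell by 0.91 from 1701 and 1520 RPKM to 806 and 905 RPKM. Rplp1 and Rpl8, the most abundant of the large subunit, fell by 1.10 and 0.78. RP genes have many near-identical copies in the genome, and how the counting treated reads that match several places is not given in the sources used here, so their single values are uncertain.

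The lists of the mitochondria also held mostly falls among their calls. Of 79 genes of the mitochondrial ribosome 40 fell and 1 rose (median -0.48), of 36 genes of complex I, which takes electrons from NADH, 26 fell and 0 rose (median -0.66), and of 35 genes of complexes III and IV and ATP synthase 25 fell and 1 rose (median -0.53). With the length trend removed these medians were -0.27, -0.38 and -0.31, with 20, 5 and 7 falls, and the control medians lay between -0.02 and 0.02. Atp5e, the epsilon subunit of ATP synthase, went from 293 and 187 RPKM to 68.2 and 79.0 RPKM and fell by 1.67. Mrpl52 of the mitochondrial ribosome went from 102 and 82.3 RPKM to 29.6 and 30.4 RPKM and fell by 1.61. Ndufa2 and Ndufa5 of complex I fell by 1.47 and 1.32, Atp5k of ATP synthase by 1.29, and Cox4i1 of cytochrome oxidase by 0.96. The 2 genes that rose were Mrps2 (by 0.48) and Uqcrc2, a core protein of complex III (by 0.60), and neither passed with the length trend removed (adjusted p = 0.0512 and 0.0527 in limma). Genes of the mitochondrial genome were not compared: 13 of 15 are in the table, listed without a read in all 12 libraries.

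Most proteasome genes fell, and at 10 h the list was lower than in control by its median. Of 33 tested, 23 fell and 0 rose, with a median of -0.56 (-0.44 and 12 falls with the length trend removed, -0.02 in the control). Psma5, of the core ring, had 215 and 181 RPKM at 7 h and 99.0 and 100 RPKM at 10 h. It fell by 0.98 ± 0.12, to a level that both control libraries of 10 h, at 147 and 144 RPKM, exceeded. Psmb6, a catalytic subunit, fell by 1.04 and Psmb4 by 0.92. The median difference of the list from control was 0.32 at 7 h and -0.24 at 10 h, while that of the 2 RP lists at 10 h was -0.10 and -0.08.

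Lists that act on RNA and translation were mixed. Of 47 splicing proteins 18 fell and 4 rose (median -0.33), of 39 translation initiation factors 12 fell and 3 rose (-0.28), and of 59 ribosome biogenesis factors 13 fell and 2 rose (-0.05). The small Sm proteins Snrpf and Snrpg fell by 1.54 and 1.43, whereas Prpf8 and Sf3b1, large proteins of the spliceosome core, rose by 0.72 and 0.65. Eif3g and Eif6 fell by 0.99 and 0.91, and Eif4ebp2, which restrains cap-dependent translation, and Eif4a2, a helicase, rose by 0.67 and 0.57. Among biogenesis factors, Nhp2 and Npm1 (nucleophosmin) fell by 1.17 and 0.74, and Mdn1, one of the largest proteins of the cell, and Nop56 rose by 1.14 and 0.55. With the length trend removed, 0 members of these 3 lists rose and 8, 8 and 10 fell. Without replicate 1 at 7 h, 22 initiation factors and 22 biogenesis factors fell, and 6 of the latter rose. Mybbp1a, a nucleolar protein that the study followed, had 58.0 and 76.3 RPKM, then 87.6 and 89.7 RPKM, and a change of 0.41 that missed the threshold (limma adjusted p = 0.0976).

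**Figure D3:**
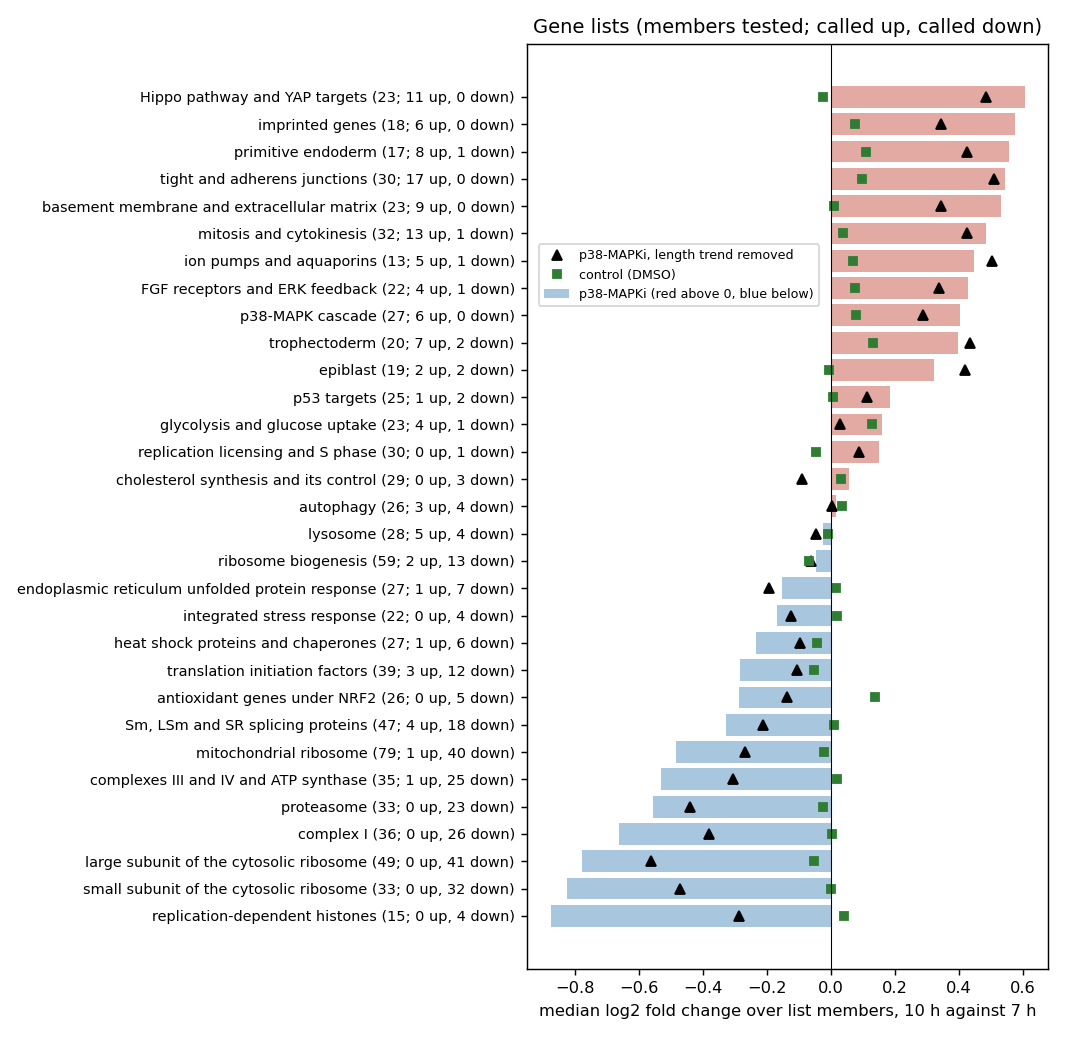
Median log2 fold change from 7 h to 10 h (horizontal axis) over the members of each gene list with 10 or more genes tested (vertical axis, with the numbers tested and called in each direction under p38-MAPKi). Bars are p38-MAPKi (red above 0, blue below), triangles are p38-MAPKi with the length trend removed and green squares are the control; the Hippo list stands highest at 0.61 and the histone list, 4 of whose 15 genes passed the filter through 1 time point alone, lowest at -0.88, and the control medians stay within 0.14 of 0.

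The calls in the Hippo and junction lists were rises. In the Hippo pathway with YAP targets 11 of 23 tested genes rose and 0 fell, with a median of 0.61, and in tight and adherens junctions 17 of 30 rose and 0 fell, with a median of 0.54, against 12% of all tested genes that rose. After centring, 7 and 10 rose and 0 and 1 fell. With the length trend removed the medians were 0.48 and 0.51, and 2 and 13 genes rose. The control medians were -0.03 and 0.10. Without replicate 1 at 7 h, 15 and 21 genes rose and 0 fell. The same direction was found for the basement membrane, where 9 of 23 genes rose and 0 fell (median 0.53, and 0.34 with 5 rises after removal of the length trend), and without replicate 1 at 7 h 11 rose and 2 fell.

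Amotl2, an angiomotin that holds YAP at junctions and is itself a YAP target, had 9.07 and 7.11 RPKM at 7 h and 23.1 and 21.5 RPKM at 10 h. It rose by 1.47 ± 0.16 (limma adjusted p = 0.0153), and the control at 10 h held 27.1 and 30.9 RPKM, still above both p38-MAPKi libraries. Its promoter letters are printed above with those of Vgll4, a cofactor that competes with YAP, of Wwc2 and Ajuba, which act on the LATS kinases, and of Mob1a, a LATS activator. These rose by 0.86, 0.68, 0.61 and 0.57. Stk3, the upstream kinase MST2, had 2.03 and 4.02 RPKM and then 7.94 and 8.06 RPKM, and rose by 1.48. Tead4 rose by 0.65 from 24.1 and 32.7 RPKM to 44.1 and 44.0 RPKM. Yap1 itself had 29.1 and 30.4 RPKM, then 29.5 and 33.7 RPKM, and its groups overlapped (change 0.08, adjusted p = 0.640).

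Msn (moesin), which ties the cell cortex to the membrane, had 16.2 and 17.5 RPKM at 7 h and 52.0 and 49.8 RPKM at 10 h. The control held 39.5 and 40.7 RPKM and then 52.4 and 58.0 RPKM. Msn rose by 1.59 ± 0.12. Dsg2, a desmosomal cadherin, rose by 1.33 from 6.94 and 7.96 RPKM to 18.5 and 18.8 RPKM. Cldn4, the most abundant claudin of the list, had 649 and 618 RPKM and then 677 and 719 RPKM, a change of 0.14 (adjusted p = 0.296). In the basement membrane, Fn1 (fibronectin) rose by 1.49 from 9.28 and 8.47 RPKM to 25.1 and 24.6 RPKM, and Nid1 (nidogen) by 1.42 from 8.87 and 9.5 RPKM to 25.2 and 24.1 RPKM. Nid1 ended above both control libraries at 10 h, which held 19.2 and 20.2 RPKM. Of 13 ion pumps and aquaporins, which drive fluid into the cavity, 5 rose and 1 fell (3 and 0 with the length trend removed, 2 and 1 after centring). Atp12a, a proton and potassium pump, rose by 1.51, Slc4a2, an anion exchanger, by 0.82, and Slc9a3r1, a scaffold of ion exchangers, by 0.63. Atp1b3, a beta subunit of the sodium pump, fell by 0.44.

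**Figure D4:**
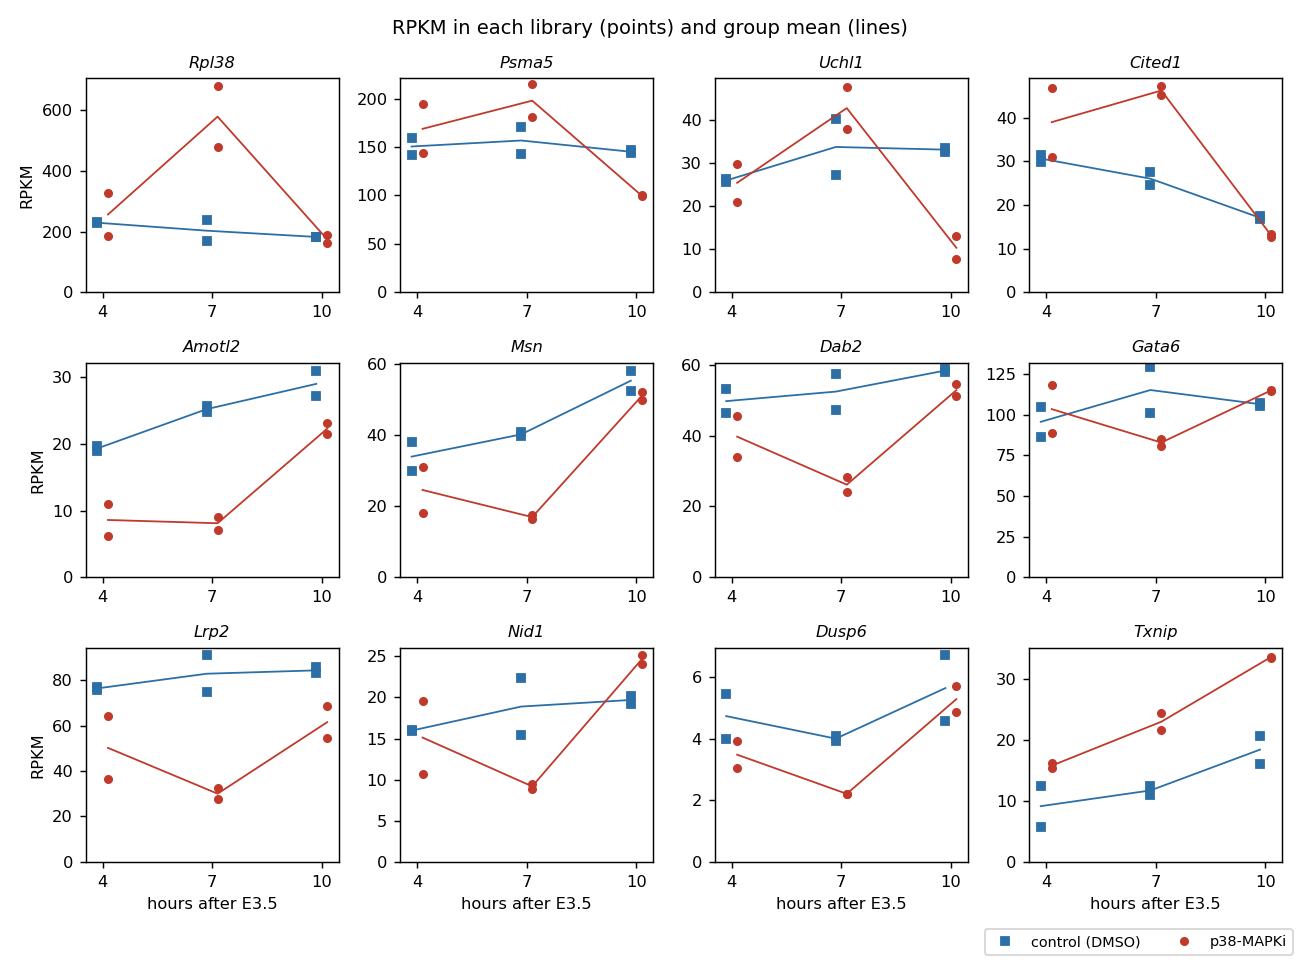
RPKM (vertical axis) of 12 genes in each of the 12 libraries against hours after E3.5 (horizontal axis), with points for libraries and lines for group means, red for p38-MAPKi and blue for control. In Rpl38 the red points are highest at 7 h, in Psma5 they are low at 10 h, in Amotl2, Msn, Dab2 and Nid1 they are low at 7 h and rise to 10 h, and Uchl1 ends below and Txnip above the control.

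Lineage genes were counted list by list. Of 17 PrE genes 8 rose and 1 fell (median 0.56), of 20 TE genes 7 rose and 2 fell (0.40), and of 19 EPI genes 2 rose and 2 fell (0.32), against 12% and 10.0% of all tested genes. The EPI shares, 10.5% each way, lie near that background. After centring 5 PrE, 2 TE and 1 EPI genes rose, against 5.84% of all tested genes. Without replicate 1 at 7 h, 11 of 17 PrE, 10 of 19 TE and 10 of 18 EPI genes rose, against 24.7% of all tested genes. The EPI share was thus near the background in the main setting but above it without that library. Of the EPI genes, 2 passed the filter through 10 h alone, and the median of the other 17 was 0.18. With the length trend removed the medians were 0.43, 0.43 and 0.42, and 3, 4 and 2 genes rose, so the medians then lay close together. Whether the lists differ was not tested. The control medians were 0.11, 0.13 and -0.01.

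Among PrE genes, Dab2, an endocytic adaptor, had 24.0 and 28.3 RPKM and then 54.6 and 51.0 RPKM and rose by 1.02, and Lrp2 (megalin), the receptor it serves, had 27.6 and 32.5 RPKM and then 68.5 and 54.5 RPKM and rose by 1.03. Lrp2 stayed below the control at 10 h, at 85.6 and 83.0 RPKM. Gata6, the transcription factor that starts PrE fate, had 80.9 and 85.0 RPKM at 7 h and 115 and 115 RPKM at 10 h, and it rose by 0.47 ± 0.10 (limma adjusted p = 0.0265) to the control level of 106 and 108 RPKM. This call was not kept when the libraries were centred on their median (adjusted p = 0.118). The later PrE factors were low and did not pass: Gata4 had 1.23 and 1.07 RPKM, then 1.84 and 1.85 RPKM (adjusted p = 0.196), against 3.86 and 2.34 RPKM in the control at 10 h. The changes of Sox17 (0.26) and Pdgfra (0.50) had adjusted p-values of 0.513 and 0.0941. Cited1, a transcriptional cofactor, was the exception of the list, with 45.1 and 47.2 RPKM at 7 h, 12.8 and 13.4 RPKM at 10 h, and it fell by 1.82 ± 0.12. Its level was also lower at 10 h in the control, at 24.6 and 27.4 RPKM and then 17.4 and 16.7 RPKM.

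Among EPI genes, Nanog had 123 and 105 RPKM, then 96.8 and 107 RPKM, with overlapping groups (change -0.15, adjusted p = 0.384). Tfcp2l1 and Tbx3, factors of naive pluripotency, rose by 0.74 and 0.40, Pou5f1 (OCT4) fell by 0.42 and Dppa3 (Stella) by 1.20, from 2284 and 1803 RPKM to 830 and 946 RPKM. Pou5f1 did not pass with the length trend removed (adjusted p = 0.167). Among TE genes, Tspan8 rose by 1.23 and Tfap2a, an AP-2 factor, by 1.01, whereas Sfn fell by 0.76. Hand1, of giant cells, is the other call among the falls, and since it passed the filter through 7 h alone (3.34 and 3.45 RPKM, then 0.910 and 0.901 RPKM), 1 fall in 19 TE genes is left without it. Cdx2, the defining TE factor, had 158 and 144 RPKM, then 177 and 176 RPKM, which did not pass (change 0.22, adjusted p = 0.147), and the control held 204 and 208 RPKM at 10 h. Krt18, a TE keratin, had overlapping groups at 1184 to 1361 RPKM.

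In FGF signalling, which drives PrE fate through ERK, 4 of 22 genes rose and 1 fell (median 0.43, 0.34 with the length trend removed, 0.07 in the control). The 18.2% that rose compare with 12% of all tested genes, and without replicate 1 at 7 h 12 rose and 2 fell. Of the 22, 1 passed the filter through 10 h alone and was not called. Fgfr2, the receptor of PrE and TE cells, had 8.55 and 6.43 RPKM and then 13.9 and 13.8 RPKM, and it rose by 0.90 ± 0.18 (adjusted p = 0.0244). This call was not kept with the length trend removed (change 0.53, limma adjusted p = 0.125) or after centring (change 0.67, adjusted p = 0.0666). Fgfr1, with 7.91 and 9.99 RPKM and then 12.8 and 13.9 RPKM, missed the threshold (change 0.59, adjusted p = 0.0552). Dusp6, a phosphatase of ERK that ERK induces, went from 2.22 and 2.22 RPKM to 4.87 and 5.72 RPKM and rose by 1.25, and Frs2, the adaptor of the receptors, rose by 1.06. Spry2, another feedback inhibitor, had a change of 0.36 (adjusted p = 0.114), and the kinase Map2k2 (MEK2) fell by 0.80. In the p38-MAPK cascade 6 of 27 genes rose and 0 fell (median 0.40, 0.29 with 2 rises after removal of the length trend). Without replicate 1 at 7 h 12 rose and 3 fell, and after centring 3 rose and 2 fell. Map2k6, the kinase that activates p38-MAPK, rose by 1.06, and Zfp36l1, an RNA-binding protein downstream, by 1.46. The kinases themselves did not pass, with Mapk14 (p38-alpha) at 18.9 and 24.7 RPKM, then 28.5 and 26.1 RPKM (adjusted p = 0.175), and Mapk13 (p38-delta) at 15 and 20.0 RPKM, then 12.1 and 16.2 RPKM (adjusted p = 0.313).

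**Figure D5:**
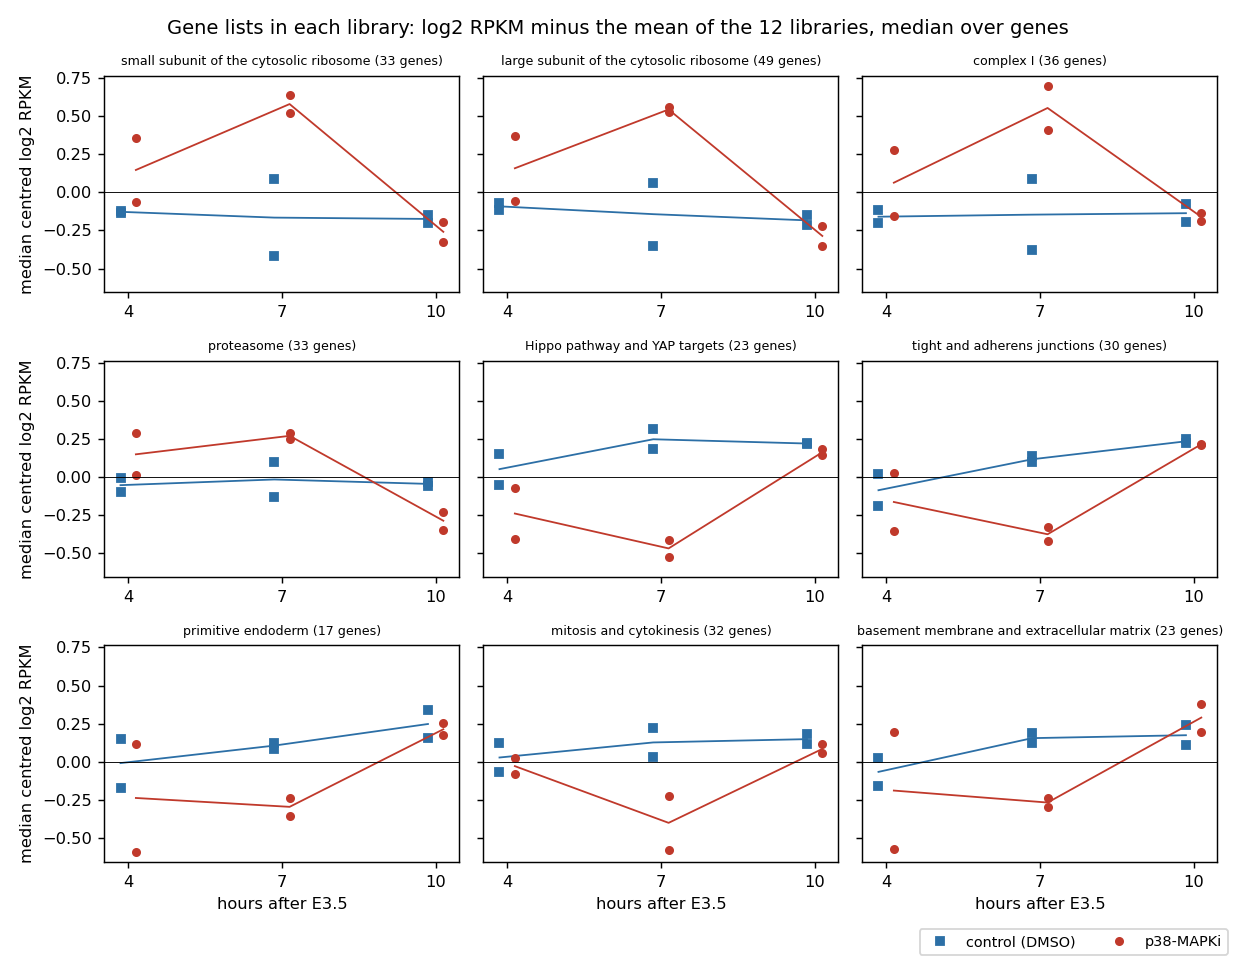
Median over the tested members of 9 gene lists of the log2 RPKM minus the mean of the gene over the 12 libraries (vertical axis), for each library (points) with group means (lines), against hours after E3.5 (horizontal axis). Red is p38-MAPKi and blue is control; at 7 h the red points stand above the blue ones in the ribosome, complex I and proteasome lists and below them in the other 5 lists, and at 10 h both colours lie close together except in the proteasome list.

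Cell cycle genes were taken as 2 lists. In mitosis and cytokinesis 13 of 32 genes rose and 1 fell (median 0.48, and 0.42 with 5 rises and 1 fall after removal of the length trend), whereas of 30 genes of replication licensing and S phase 0 rose and 1 fell (median 0.15). Without replicate 1 at 7 h 4 of the latter rose and 4 fell, and after centring 8 mitosis genes rose and 3 fell. Top2a, which untangles DNA, had 14.7 and 20.9 RPKM and then 43.4 and 38.8 RPKM and rose by 1.23, and Aspm, of the spindle pole, rose by 1.48 from 1.33 and 2.45 RPKM to 5.14 and 4.93 RPKM. Birc5 (survivin) fell by 0.75, and Cdc20 had a change of -0.15 (adjusted p = 0.314). Gmnn (geminin), which blocks a further round of licensing, was the member that fell, by 0.52. Of 60 histone genes of S phase 15 were tested, and 4 of these passed the filter through 1 time point alone. Of the other 11, 3 fell and 0 rose, among them Hist1h1a by 1.30, and 0 of all 15 were called with the length trend removed. Hist1h2bj, which passed through 7 h alone, had 3.27 and 4.34 RPKM and then 0.294 and 0.706 RPKM. Most of these mRNAs have no poly(A) tail, by which the libraries were selected.

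Some of the largest single changes lay outside these lists. Of the 12 largest rises among genes called with non-overlapping libraries and a mean level above the median, 9 have a gene name rather than that of a prediction, and of the 12 largest falls 12 do. The rises included Peg10, an imprinted gene of the placenta, which had 5.10 and 2.89 RPKM and then 14.8 and 20.3 RPKM and rose by 2.17 ± 0.31. The control of Peg10 had 7.58 and 6.99 RPKM and then 10.6 and 17.1 RPKM. H19, an imprinted non-coding RNA, passed the filter through 10 h alone, with 0.938 and 0.604 RPKM and then 3.35 and 8.60 RPKM. Of 18 imprinted genes tested, 4 passed in this way, and of the other 14, 5 rose and 0 fell (median 0.31). With the length trend removed, 2 of the 18 rose. The other largest rises were Klk7, a secreted protease (by 1.91), Wnk2, a kinase (by 1.59), Ahnak, a giant scaffold protein (by 1.51), and Cbl, a ubiquitin ligase that removes active growth factor receptors (by 1.38).

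Uchl1, a deubiquitinase, ended below the control. It had 37.9 and 47.7 RPKM at 7 h and 7.68 and 13.0 RPKM at 10 h and fell by 2.09 ± 0.27 (limma adjusted p = 0.0153). The control held 40.2 and 27.3 RPKM and then 32.7 and 33.6 RPKM. Mt4, a metallothionein, fell by 2.20 from 23.5 and 14.4 RPKM to 4.11 and 3.90 RPKM, beside 3.96 and 3.99 RPKM in the control. Bola2, of iron-sulfur handling, fell by 1.93, Rhox5, an X-linked homeobox gene, by 1.90, Ccdc85b by 1.69, Stmn3, which destabilizes microtubules, by 1.66, and Romo1, a mitochondrial membrane protein, by 1.64. Epb41l4aos, an RNA antisense to a coding gene, fell by 1.83, and whether the counting used the strand is not given in the sources used here, so its reads cannot be told from those of its partner.

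The main counts of the stress and metabolic lists are read against the 12% of all tested genes that rose and the 10.0% that fell. Most of these counts moved with the setting, and so did the shares of all tested genes that rose and fell. These shares were 4.27% and 3.36% with the length trend removed, 5.84% and 16.6% after centring, and 24.7% and 18.1% without replicate 1 at 7 h. In the unfolded protein response 7 of 27 genes fell and 1 rose, and the falls were 3 with the length trend removed, 10 after centring and 13 without replicate 1 at 7 h. Creld2, a chaperone of the endoplasmic reticulum, fell by 1.13 and ended at 43.1 and 49.3 RPKM, against 71.5 and 69.7 RPKM in the control. Sel1l, which retrieves misfolded proteins, rose by 0.80. In the integrated stress response 4 of 22 fell and 0 rose (2, 10 and 8 falls in these settings), among them Cebpb by 1.39 and Phgdh, of serine synthesis, by 0.94, while Atf4 had a change of -0.14 (adjusted p = 0.336). Eif4ebp1 fell by 0.88. The control changes over these hours were 0.10 for Cebpb and -0.61 for Phgdh. Of 26 antioxidant genes 5 fell and 0 rose (2, 10 and 11 falls), with Mt1 and Mt2 (metallothioneins) down by 1.20 and 0.72 and Sod1 by 1.14. Among p53 targets 2 of 25 fell and 1 rose, below the share of all genes, with 0 calls after removal of the length trend, 5 falls after centring, and 5 falls and 6 rises without replicate 1 at 7 h. Phlda3, which restrains AKT, fell by 0.67 from 161 and 145 RPKM to 94.8 and 96.6 RPKM, still above the control at 69.1 and 66.9 RPKM, Bax fell by 0.61, and Apaf1 rose by 0.62. Ccng1 had a change of 0.07 (adjusted p = 0.659). Of 27 chaperones 6 fell and 1 rose (3, 13 and 11 falls in the same order of settings), with Hspe1 and Hsp90aa1 down by 0.82 and 0.51 and Hsph1 up by 0.52.

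In cholesterol synthesis 3 of 29 genes fell (10.3%, near the 10.0% of all tested genes, with 1 fall after removal of the length trend and 5 without replicate 1 at 7 h) and 0 rose, among them Ebp by 1.04 and Pmvk by 0.84. Of 28 lysosomal genes 5 rose and 4 fell (2 and 3 with the length trend removed, 7 and 10 without replicate 1 at 7 h). Npc1 and Tpp1 rose by 0.99 and 0.79, Psap by 0.34, and Ctsz and Npc2 fell by 1.04 and 0.61, so the paired cholesterol transporters Npc1 and Npc2 changed in opposite directions. Of 26 autophagy genes 3 rose and 4 fell (0 of either with the length trend removed, 5 and 6 without replicate 1 at 7 h), with Rb1cc1 up by 0.92 and Map1lc3a (LC3) down by 0.87. In glycolysis and glucose uptake 4 of 23 genes rose and 1 fell (4 and 0 with the length trend removed, 7 and 3 without replicate 1 at 7 h). Slc2a3, a glucose transporter, rose by 0.71 to the level of the control. Txnip, which restrains glucose uptake, had 24.4 and 21.6 RPKM and then 33.7 and 33.5 RPKM and rose by 0.55 ± 0.12 (adjusted p = 0.0306). Txnip was not called after centring (change 0.32, limma adjusted p = 0.144). Its control had 12.4 and 11 RPKM and then 20.7 and 16.1 RPKM, a change of 0.64, and Txnip stood above the control by 0.97 at 7 h and 0.88 at 10 h on the log2 scale. Its paralog Arrdc4 rose by 0.79 (control change 0.72), while Mlxipl (ChREBP), a factor known to switch on both, fell by 0.82. Plk2, a kinase that stood above the control at both times, by 0.86 and 0.85, had 20.1 and 22.4 RPKM and then 19.4 and 20.2 RPKM (change -0.10, adjusted p = 0.576).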

How the data were processed

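Per the labels and the methods of the study, the authors trimmed the reads with Trim Galore 0.4.1, mapped them to GRCm38 with HISAT2 2.0.5 and used SeqMonk for the expression analysis. The deposited table holds log2 RPKM for 34245 genes, with 1 column for each of the 12 libraries. The library kit was directional, but the strand setting of the counting and the handling of reads that match several places are not given in the sources used here. A gene without a read was found to be written as 0.9 of a read, from which the depths (11242313 to 24457312 reads) and the whole reads of 34241 genes were recovered, within 0.02 of a read.

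The log2 values were used as deposited, with no pseudocount. Genes needed at least 1 RPKM in at least 2 libraries of the fit. limma 3.58.1 in R 4.3.3 (eBayes with a trend on the mean level, two-sided, Benjamini-Hochberg over all tested genes, threshold 0.05) compared 2 libraries with 2 for p38-MAPKi and for control, and the difference of the changes over 8 libraries. The study describes the pools of a group as biological duplicates, and the p-values measure the spread between these pairs. The length trend was removed by subtracting from each library a loess fit (span 0.5, degree 1) on log2 exon length.

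Named genes included, in each direction, the 12 called genes that changed most, given separated libraries. Their mean level had to lie above the median of all tested genes, and predicted genes were counted but not named. In each of 35 gene lists, the 2 called members with the largest change in each direction and the 2 with the highest level were added. So were genes called in the test of the difference and 15 genes picked by symbol. Of these 15, Amotl2, Txnip, Plk2 and Phlda3 are not named in the text of the study. Some genes that this rule selects are not reported here. The genes whose starts are printed were picked after their values were seen. The genes, lists and tests were chosen with earlier results of these data known. Alternatives were limma without the trend, centring, quantile normalization, other filters and pseudocounts, 1 fit of all 12 libraries, a replicate block, removal of the length trend, voom on the recovered reads, another threshold and leaving out each library. Removal of the length trend without replicate 1 at 7 h was added after seeing the data. Figures were drawn with matplotlib 3.10.9 in Python 3.11.15.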

Additional observations from a re-analysis of the deposited data

Results flagged for a closer look

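The change from 7 h to 10 h differed between p38-MAPKi and control blastocysts in 1 gene by the test of the difference itself. This was AC139579.1, a gene known by a clone name on chromosome 7 of GRCm38, whose log2 change was higher by 2.34 under p38-MAPKi (limma, adjusted p = 0.0152). It had 2.94 and 2.56 RPKM at 7 h and 17.2 and 17 RPKM at 10 h under p38-MAPKi, and 11.5 and 10.7 RPKM and then 12.8 and 14.5 RPKM in the control. Both p38-MAPKi libraries at 7 h thus lay below the other 6. The call was lost after centring, in limma without the trend, where the 1 gene that passed was lower, and without any 1 of 5 libraries (control replicate 2 at 7 h and each of the 4 libraries at 10 h), where 0 genes passed.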

How the results depend on the processing

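The number of genes called under p38-MAPKi (2424) was 3928 at an adjusted p of 0.1, 3638 in 1 fit of all 12 libraries, 3771 by voom on recovered reads, 841 with the length trend removed, 3637 with it removed and without replicate 1 at 7 h (added after seeing the data), and 0 by limma without the trend, where 4143 genes had an unadjusted p under 0.05. Leaving out 1 library gave 88 (without replicate 1 at 10 h) to 6369 (without replicate 2 at 7 h). The replicate numbers did not pair the libraries by the rule that every correlation exceed 0.1 (correlations of replicate differences across genes were -0.00073 for p38-MAPKi 7 h with 10 h, 0.066 for control 7 h with 10 h, 0.15 for p38-MAPKi with control at 7 h and 0.079 at 10 h), and the replicate block gave 3408 calls, or 1138 with the length trend removed as well. Centring, quantile normalization, the other filters and the pseudocounts kept the count within 1.5 times. In control (6 calls) the count was 14 without the trend, 3 after centring, 3 and 2 with a pseudocount of 1 and 5 RPKM, 3 with the length trend removed, 0 without a filter (1007 at an unadjusted p under 0.05), 0 with at least 10 RPKM (132), 0 in 1 fit of all 12 libraries (215), 28 with the replicate block, 84 with the block and the length trend removed, and 3 to 221 without 1 library, the highest without replicate 1 at 7 h. For the difference between p38-MAPKi and control (1 call) it was 1176 at an adjusted p of 0.1, 538 with at least 10 RPKM, 954 by voom, 0 after centring (2907 at an unadjusted p under 0.05), and 0 to 2905 without 1 library, the highest without p38-MAPKi replicate 2 at 7 h. Of 134 named genes 117 were called. Of these, 117 were not called without the trend, 53 with the length trend removed and 17 after centring, and 88 and 56 of 116 without replicate 1 or 2 at 10 h. Signs turned with the length trend removed, with or without the replicate block, in Nanog (0.068), Mapk13 (0.084), Yap1 (-0.25), Cdc20 (0.15) and Atf4 (0.19), and in the added setting in Nanog (0.19), Yap1 (-0.26), Cdc20 (0.043) and Atf4 (0.14). They turned after centring in Cdx2 (-0.0049), Yap1 (-0.15), Cldn4 (-0.090), Krt18 (-0.21) and Ccng1 (-0.16), and with quantile normalization in Nanog (0.16), Cdc20 (0.30) and Atf4 (0.11). Of these 9 genes none had been called, whereas Pou5f1 (0.12) and Hsp90aa1 (0.00093), which also turned with quantile normalization, had been. Leaving out 1 library gave -0.0016 to 0.52 for Sox17, -0.012 to 0.18 for Yap1 and -0.083 to 0.12 for Krt18. The medians of 10 of 31 lists changed sign in at least 1 setting: p53 targets, cholesterol synthesis, replication, autophagy, glycolysis, ribosome biogenesis, translation initiation, lysosome and chaperones, and, in the added setting, histones. The cause of these shifts was not tested. With 2 libraries a group, a change that was not called may still exist.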
